A study of Homo sapiens with 8 samples.

Results

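The 4 untreated cultures of A498 cells were taken here as a series of their own, chosen by the treatment label, out of 8 libraries in the study. The remaining 4 cultures had received IL1β (30 ng/ml, over 4 h), and no value is set against theirs. A498 is an established human line of clear cell renal cell carcinoma (ccRCC), the kidney cancer that arises from tubular epithelium, and it carries a mutated VHL gene. The untreated cells were grown in RPMI with fetal bovine serum to near confluence, and total RNA of each culture went into a stranded library. All libraries are from this 1 line, so the replicates are cultures and not patients, and the labels give no more on how the cultures were kept apart. The question was what these cells express without added IL1β, and how far the cultures differ among themselves.

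VHL is part of a ubiquitin ligase that marks the α subunits of hypoxia-inducible factor (HIF) for destruction while oxygen is present. Without working VHL, HIF1A and EPAS1 proteins persist and switch on genes of glycolysis, pH control, angiogenesis and matrix remodeling, which is the hallmark of ccRCC. The libraries read RNA only, so which of these proteins A498 cells hold is not shown here. IL1β binds IL1R1 together with IL1RAP and signals through MYD88 and IRAK kinases to NF-kB, while SIGIRR is an inhibitory member of the same receptor family.

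The named genes held 16610473 to 27040505 counts per library, and levels are given as CPM (counts per 1000000 counts of the library), always in the order replicate 1 to replicate 4. CPM are shares of the counts, in which a long gene takes more, and levels of different genes are compared after division by exon length, as CPM per kb. One count stood for 0.037 to 0.0602 CPM, and a level up to that of 3 counts (0.111 to 0.181 CPM, counting error only) cannot be told from none. In all 4 libraries 12419 of 59023 genes reached 1 CPM, among them 11220 of 19216 protein-coding genes (58.4%) and 400 of 3942 long noncoding RNAs (10.1%), while 29994 genes had no count. The median of the 12419 genes was 30.0 CPM, and 97 genes averaged over 1000 CPM. Replicate 1 stood apart from the other cultures in the most genes. Of the 9417 genes with a mean of at least 10 CPM, 199 (2.11%) lay more than 2-fold above every other culture in replicate 1 and 540 (5.73%) below. The numbers were 2 (0.0212%) above and 23 (0.244%) below in replicate 2, 12 (0.127%) and 64 (0.68%) in replicate 3, and 70 (0.743%) and 0 (0%) in replicate 4. Over the same 9417 genes, replicate 1 differed by more than 2-fold from each other culture in 1304 to 1832 genes, against 302 to 518 genes between any other cultures. These folds, like every SD of log2 CPM, were taken after a prior count of 2 was added to each gene. Results that rest on these libraries are given with the values of every culture. In RNA from a whole culture, fewer cells of a kind and less RNA per cell cannot be told apart.

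The most abundant transcripts were those of the cytoskeleton, iron storage, glycolysis and mitochondria. By CPM the highest genes were ACTB (8344 ± 2026 CPM, SD, n = 4), GAPDH, VIM, FTL, PKM, HSPA5, IGFBP3, ACTG1, MT-RNR2, FLNA, ASPH, EEF1A1, FTH1, MT-CO1 and TXNRD1. Without replicate 1, HSPA5 averaged 1682 CPM and IGFBP3 2073 CPM, and these and TXNRD1 were no longer among the 15 highest. The 10 highest held 3.79% to 4.76% of all counts, the 100 highest 17.5% to 19.5% and the 1000 highest 51.6% to 54.1%. Per length, FTL, the ferritin light chain, led with 4605 ± 1122 CPM per kb (SD, n = 4). The actin-binding peptide TMSB10 followed with 4435 ± 277 CPM per kb, and their order differed between cultures. The ferritin heavy chain FTH1 also stood among the 15 highest per length, at 1491 ± 544 CPM per kb. Iron storage was thus represented by both ferritin chains. The aldose reductase-like enzyme AKR1B10, a target of NRF2, had 1357 ± 628 CPM per kb, and in replicate 1 its level was lowest (878, 2703, 3541 and 2503 CPM). TXNRD1, the cytosolic thioredoxin reductase and another NRF2 target, varied less (2432, 2728, 1976 and 2537 CPM). The calcium-binding proteins S100A6 (1741, 803, 929 and 947 CPM) and S100A11 (1212, 491, 474 and 520.0 CPM) were highest in replicate 1. Mitochondrially encoded mRNAs held 0.971% to 1.81% of counts and were highest in replicate 2 for 12 of 13 genes, against 29.5% of the 9417 genes. Genes of ribosomal proteins held 4.72% to 5.75%.

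**Figure D1:**
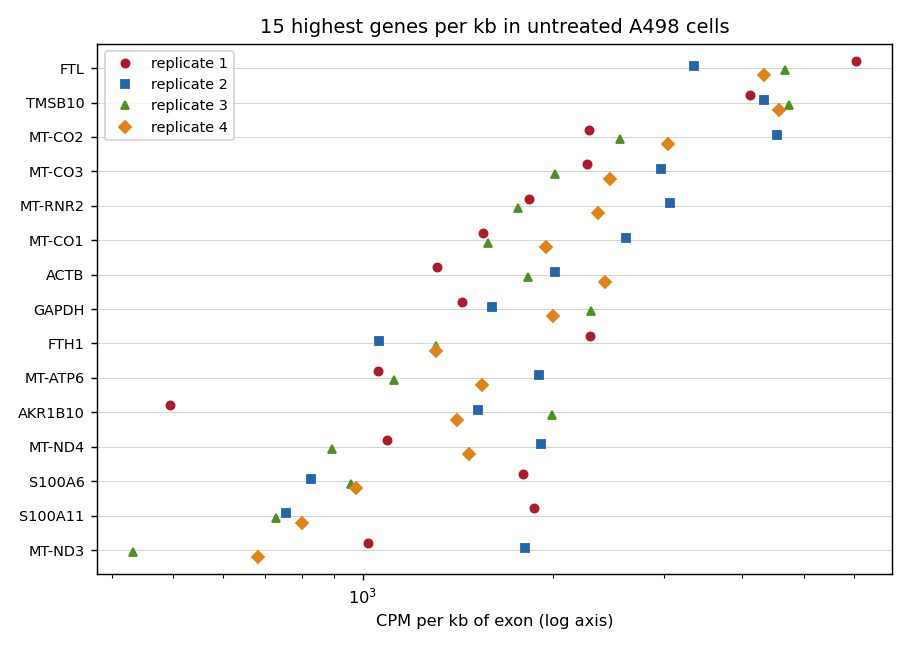
CPM per kb of exon on a log axis for the 15 genes with the highest mean per kb, 1 point per untreated culture. FTL and TMSB10 lie above the others in mean level, and AKR1B10 in replicate 1 is set apart to the left.

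PAX8 (chr2:113215997-113278921 in hg38, minus strand), the transcription factor used to recognise tumours of renal origin, was found in every culture at 137, 147, 116 and 231 CPM. The kidney patterning factors LHX1 (32.0, 34.9, 24.8 and 30.1 CPM) and HOXA11 (90.9, 49.8, 72.0 and 50.5 CPM) were likewise present, and PAX2 was low at 5.81, 8.01, 12.5 and 8.07 CPM. Of 24 listed regulators, 15 (62.5%) reached 1 CPM in all cultures, a share near the 58.4% of all protein-coding genes, beside which the counts of the other lists are also to be read. WT1, EMX2 and TFAP2B had no count in any culture. PAX8 was thus present as a marker of renal origin, while 8 of the 24 regulators averaged under 1 CPM.

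Of 26 proximal tubule genes, 9 (34.6%) reached 1 CPM in all cultures, and 16 averaged under 1 CPM. LRP2, the endocytic receptor megalin, had no count in any library, and its partner CUBN had 0.481, 0.542, 1.27 and 0.990 CPM. The organic anion transporters SLC22A6 and SLC22A8 and the alkaline phosphatase ALPL had no count either. The brush border peptidase ANPEP was the exception, with 333, 435, 697 and 304 CPM. The bicarbonate cotransporter SLC4A4 followed, also per length, with 34.4, 67.9, 64.7 and 68.8 CPM, lowest in replicate 1. The neutral endopeptidase MME had 17.8, 11.7, 15.9 and 56.9 CPM and was highest in replicate 4. Genes of other nephron segments were fewer still, with 4 of 21 at 1 CPM in all cultures. SYNPO, an actin-associated protein known from podocytes, was the highest of them per length and stood highest in replicate 1 (737, 152, 298 and 135 CPM). The podocyte slit diaphragm gene NPHS1 was at or under 0.481 CPM.

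Genes of tubular injury and progenitor state were mostly expressed, with 12 of 14 at 1 CPM in all cultures. SPP1 (osteopontin) had 1266, 1569.7, 1899 and 1703 CPM and CD24 had 242, 324, 510.3 and 330.4 CPM. HAVCR1, the injury marker KIM-1, was lowest in replicate 1 (2.40, 28.8, 29.7 and 41.9 CPM). The kidney cadherin CDH6 showed the same split, with 4.47, 59.5, 86.9 and 54.5 CPM. In both genes the values of replicates 2 to 4 lay within 2-fold of each other. Among epithelial genes the simple keratins led, with KRT8 at 643, 798, 1162 and 1365 CPM and KRT18 at 343, 454, 596 and 630.0 CPM. E-cadherin, CDH1, was low (0.962, 0.843, 0.634 and 1.35 CPM), while N-cadherin, CDH2, had 184, 355, 281 and 266 CPM. VIM, the mesenchymal intermediate filament, had 4079, 4133, 4307 and 3925 CPM and varied little, with an SD of 0.06 in log2 CPM. The cells thus carried keratin 8 and 18 transcripts together with vimentin and N-cadherin. Of 24 epithelial genes 12 (50%) reached 1 CPM in all cultures, and of 17 mesenchymal genes 14 (82.4%) did.

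Among oxygen sensing genes, RNA of the HIF subunits HIF1A and EPAS1 differed between the cultures. The list as a whole deviated from its 4-culture mean by a median of only 0.06, -0.07, -0.05 and 0.02 in log2 CPM. Of its 14 members with a mean of at least 10 CPM, 3 had an SD of log2 CPM over 1. VHL RNA (chr3:10141778-10153667, plus strand) was even, with 28.6, 26.0, 30.9 and 25.004 CPM, a measure of RNA level that does not read the mutation. HIF1A (chr14:61695513-61748259, plus strand) had 93.0, 419, 358 and 366 CPM, 3.85-fold lower in replicate 1 than in any other culture. EPAS1 (chr2:46293667-46386697, plus strand), which encodes HIF2α, ran the other way, with 517, 105, 88.7 and 127 CPM, 4.07-fold higher in replicate 1 than in the next culture. The partner subunit ARNT was even at 27.1, 24.3, 24.3 and 25.4 CPM, and HIF3A had no count. EGLN3, a prolyl hydroxylase that marks HIF for VHL and is itself a HIF target, had 640.0, 116, 153 and 89.7 CPM. EGLN2 was nearly without counts (0 to 0.589 CPM), and 30.6% of its exon bases also belong to a readthrough gene on the same strand in GENCODE 44, and the part of this overlap in the low count was not tested.

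**Figure D2:**
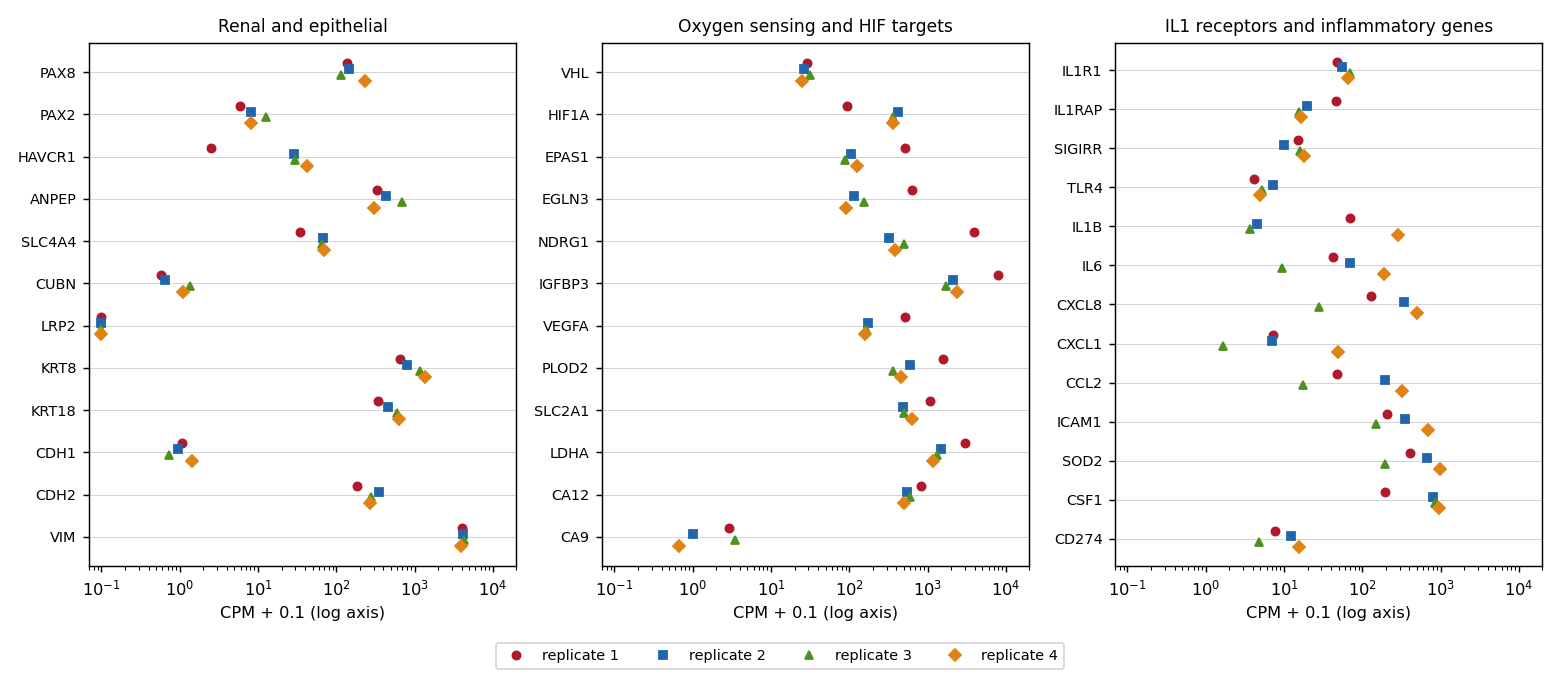
Levels of selected genes in the 4 untreated cultures, as CPM + 0.1 on a log axis, in 3 panels for renal and epithelial genes, oxygen sensing with HIF targets, and IL1 receptors with inflammatory genes. HIF1A is lowest and EPAS1, NDRG1 and IGFBP3 highest in replicate 1, while IL6, CXCL8 and CCL2 are highest in replicate 4 and lowest in replicate 3.

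Of 23 glycolytic and pH-regulating HIF targets, 22 reached 1 CPM in all cultures, with CA9 the exception. The median of their mean levels was 45.5 CPM per kb, against 5.83 CPM per kb over the detected genes with a known length. GAPDH had 3446, 3841, 5513 and 4799.8 CPM, ENO1 2232, 1708, 2328 and 2443 CPM and PKM 3690.3, 2950.5, 4140.2 and 3545 CPM, and none of them was highest in replicate 1. Lactate dehydrogenase A, LDHA, was highest there, with 3031, 1477, 1323 and 1179 CPM. The glucose transporter SLC2A1 had 1062, 492, 502 and 639 CPM. The pH regulators diverged, since carbonic anhydrase CA12 had 833, 543, 590.4 and 495 CPM but CA9, often used as a ccRCC marker, had 2.77, 0.903, 3.40 and 0.573 CPM. The low value of ALDOA (7.87 to 22.6 CPM) is uncertain, because 42.8% of its exon bases are shared with another annotated gene on the same strand. Over the list, 9 of 22 members with a mean of at least 10 CPM were highest in replicate 1 and 9 in replicate 3. For comparison, 27.5% of the 9417 genes of that level were highest in replicate 1. Of the 22 members, 4 exceeded every other culture in replicate 1 by more than 2-fold, against 2.11% of the 9417 genes. In replicate 3, 0 did so.

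HIF targets outside glycolysis were mostly highest in replicate 1. Of 32 such members with a mean of at least 10 CPM, 27 were highest in replicate 1, against 27.5% of the 9417 genes. In that culture 12 exceeded every other culture by more than 2-fold, against 2.11% of the 9417 genes. IGFBP3 (chr7:45912245-45921874, minus strand), a secreted binder of insulin-like growth factors, had 7914, 2137, 1705 and 2376 CPM. NDRG1, a hypoxia-induced differentiation gene, had 3956, 317, 499 and 387 CPM. In both genes replicate 1 lay above the range of the other cultures. The angiogenic factor VEGFA had 519, 175, 163 and 156 CPM. The collagen hydroxylase PLOD2 had 1566, 604, 359 and 459.8 CPM, and the lipase inhibitor ANGPTL4 37.5, 6.26, 3.99 and 5.05 CPM. ANGPTL4 thus reached the mean of 10 CPM only through replicate 1, so its place in these counts follows from the filter. CCND1, a cyclin driven by HIF2α in ccRCC, had 409, 196, 120.3 and 283 CPM, with replicate 4 nearest to replicate 1. Some targets were nearly silent in all cultures, with EPO at or under 0.136 CPM and NDUFA4L2 at or under 0.481 CPM. The median deviation of the list from the 4-culture mean was 0.81 in replicate 1 and -0.33 to -0.32 elsewhere on the log2 scale. Under TMM scaling it was 0.88 in replicate 1.

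HIF binds a short core in DNA, and the promoters of HIF targets are shown to let these letters be seen beside the levels. The core was searched as ACGTG or GCGTG on both strands, with overlapping matches joined, from 250 bases before to 50 bases after each start in the RefSeq table (GRCh38.p14). Of 27305 promoters, 48.4% held at least 1 match. Of the glycolytic targets 16 of 22 promoters given there (72.7%) did, and of the other targets 20 of 26 (76.9%). Of the cell cycle list, which is not a HIF list, 16 of 23 (69.6%) did, so the share is a description of these promoters and reads no binding. IGFBP3, PLOD2, ERO1A and ANGPTL4 were highest in replicate 1 by more than 2-fold, CA9 was low in all cultures, and EGLN3 was high in replicate 1 with no match in the window. The 6 sequences run 5′ to 3′ along the gene, and capitals mark the core or its reverse complement.
IGFBP3 (chr7:45921223-45921522, minus strand, 3 matches): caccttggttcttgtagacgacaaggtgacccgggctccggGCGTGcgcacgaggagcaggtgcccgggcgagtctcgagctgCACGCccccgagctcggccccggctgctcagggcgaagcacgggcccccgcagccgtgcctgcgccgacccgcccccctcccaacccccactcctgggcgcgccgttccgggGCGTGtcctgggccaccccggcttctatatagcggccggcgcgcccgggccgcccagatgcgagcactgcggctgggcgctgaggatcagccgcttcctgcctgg
PLOD2 (chr3:146161135-146161434, minus strand, 3 matches): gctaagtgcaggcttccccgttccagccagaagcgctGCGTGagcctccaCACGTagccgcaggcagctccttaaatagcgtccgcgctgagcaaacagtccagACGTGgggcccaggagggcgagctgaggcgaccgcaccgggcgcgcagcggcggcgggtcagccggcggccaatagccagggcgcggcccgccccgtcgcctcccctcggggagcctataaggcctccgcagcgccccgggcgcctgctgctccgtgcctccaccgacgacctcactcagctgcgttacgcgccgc
ERO1A (chr14:52695509-52695808, minus strand, 3 matches): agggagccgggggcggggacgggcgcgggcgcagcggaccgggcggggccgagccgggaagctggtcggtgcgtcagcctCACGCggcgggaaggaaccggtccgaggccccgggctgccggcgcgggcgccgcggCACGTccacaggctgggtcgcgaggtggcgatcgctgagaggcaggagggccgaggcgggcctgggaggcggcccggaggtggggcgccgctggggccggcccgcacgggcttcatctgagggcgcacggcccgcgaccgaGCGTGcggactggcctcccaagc
ANGPTL4 (chr19:8363905-8364204, plus strand, 1 match): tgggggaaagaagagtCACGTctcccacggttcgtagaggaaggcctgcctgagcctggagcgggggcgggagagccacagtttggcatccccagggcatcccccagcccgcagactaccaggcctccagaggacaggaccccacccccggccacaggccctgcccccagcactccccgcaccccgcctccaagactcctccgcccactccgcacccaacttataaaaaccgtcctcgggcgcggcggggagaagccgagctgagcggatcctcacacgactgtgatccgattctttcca
CA9 (chr9:35673678-35673977, plus strand, 1 match): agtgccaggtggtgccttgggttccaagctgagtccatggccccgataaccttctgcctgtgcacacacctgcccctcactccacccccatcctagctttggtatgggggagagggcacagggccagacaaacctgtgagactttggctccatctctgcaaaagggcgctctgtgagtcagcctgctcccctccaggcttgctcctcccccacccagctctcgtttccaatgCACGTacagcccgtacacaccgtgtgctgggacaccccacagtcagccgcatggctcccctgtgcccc
EGLN3 (chr14:33951025-33951324, minus strand, 0 matches): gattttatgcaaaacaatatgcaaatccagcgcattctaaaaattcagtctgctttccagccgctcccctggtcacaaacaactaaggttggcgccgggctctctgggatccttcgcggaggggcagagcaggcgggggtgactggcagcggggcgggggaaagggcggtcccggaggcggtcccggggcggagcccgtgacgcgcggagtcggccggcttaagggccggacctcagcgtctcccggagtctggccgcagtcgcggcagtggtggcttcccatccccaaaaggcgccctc
The CA9 match starts 18 bases before the transcription start, and that of ANGPTL4 starts 234 bases before it. CA9 thus held the core close to its start in cells with 0.573 to 3.40 CPM of its RNA, whereas EGLN3 held none in the window at 89.7 to 640.0 CPM.

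Of 16 genes altered in ccRCC or other cancers, VHL among them, 14 reached 1 CPM in all cultures. The chromatin regulators PBRM1 (39.1, 52.5, 35.5 and 38.5 CPM), BAP1 (58.9, 70.9, 99.6 and 85.1 CPM) and SETD2 (42.8, 64.6, 51.6 and 48.7 CPM) differed by less than 2-fold between the extremes. CDKN1A, the p21 inhibitor of cyclin-dependent kinases, had 446, 175, 231 and 244 CPM, highest in replicate 1. CDKN2A (0 to 1.77 CPM) and TERT (0 to 0.421 CPM) were low in every culture.

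The resting cells expressed collagens of several types. Of these, COL4A1 had 550.4, 524, 681 and 765 CPM and COL4A2 1310.4, 688, 1278 and 1114 CPM, the chains that form the α1α2 network of basement membranes. COL6A2 (80.9 ± 36.9 CPM per kb), COL5A1 (73.4 ± 30.0 CPM per kb) and COL6A1 (61.4 ± 34.0 CPM per kb) were the highest collagens per length. Of 26 collagens, 18 (69.2%) reached 1 CPM in all cultures. SPARC, a collagen-binding glycoprotein, had 1182, 2162, 2659.8 and 2074 CPM. TGFBI had 897, 1969, 2508 and 1728 CPM and fibronectin, FN1, 764, 1449, 2041 and 1729 CPM. These 3 glycoproteins were lowest in replicate 1. Laminin γ1, LAMC1, was even, with 594, 576, 596 and 545 CPM, and of 40 glycoproteins and proteoglycans 32 reached 1 CPM in all cultures. The integrin subunits ITGA3 (2173, 1084, 1730.4 and 1199 CPM) and ITGB1 (1715, 1456, 1253 and 1105 CPM), which pair into a laminin receptor, were the leading adhesion receptors of 20 listed subunits by CPM per kb.

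Proteases and their inhibitors were split between even and very uneven genes. The membrane protease MMP14 had 600.0, 387, 559 and 542 CPM and the inhibitor TIMP2 1020.2, 608, 760.5 and 714 CPM. The interstitial collagenase MMP1 had 267, 40.3, 10.9 and 908 CPM, an 83.2-fold range. MMP3 (stromelysin) had 111, 19.0, 5.57 and 490.0 CPM and the urokinase gene PLAU 37.8, 6.44, 8.38 and 402 CPM. In all 3, replicate 4 was highest and replicate 1 next. The gelatinase MMP9 stayed at 0.781 to 1.45 CPM.

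The receptors of IL1β were present before any stimulus. IL1R1 (chr2:102064544-102179874, plus strand) had 47.5, 55.2, 69.9 and 64.9 CPM, and IL1RAP, its co-receptor, 46.2, 19.7, 15.6 and 16.1 CPM, highest in replicate 1. The inhibitory SIGIRR (chr11:405716-417455, minus strand) had 15.1, 9.93, 15.9 and 17.7 CPM. The decoy receptor IL1R2 was at 0.111 to 3.07 CPM. Of the Toll-like receptors, TLR3 (28.6, 33.3, 24.4 and 25.004 CPM) and TLR6 (13.2, 23.0, 22.2 and 19.1 CPM) were above TLR4 (4.07, 7.04, 5.12 and 4.84 CPM), also per length, while TLR7, TLR8 and TLR9 had no count. The adaptor MYD88 had 28.7, 25.9, 23.4 and 30.7 CPM, and the kinase IRAK1 was the highest of the list per length (75.1 ± 16.9 CPM per kb). Of 38 family members and adaptors, 23 (60.5%) reached 1 CPM in all cultures, close to the 58.4% of all protein-coding genes. IL1B itself (chr2:112829751-112836816, minus strand) was transcribed without added cytokine at 70.1, 4.46, 3.58 and 282 CPM. Replicates 1 and 4 were thus far above replicates 2 and 3 in IL1B, while IL1R1 differed by only 1.47-fold between the extremes.

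Inflammatory genes were expressed at a resting level that differed between cultures, highest in replicate 4 and lowest in replicate 3. CXCL8, the neutrophil chemokine IL-8, had 129.99, 337, 28.0 and 498.5 CPM. CCL2, which attracts monocytes, had 47.8, 193, 17.3 and 319 CPM, and IL6 42.4, 69.0, 9.29 and 191 CPM. In each of these 3 genes replicate 3 lay more than 2-fold below every other culture, as 0.68% of the 9417 genes did. CXCL1 had 7.14, 6.98, 1.54 and 48.3 CPM, with replicate 4 at 6.77-fold the next culture. It reached a mean of 10 CPM only through replicate 4, and averaged 5.22 CPM without that culture. Of 22 chemokines 8 (36.4%) reached 1 CPM in all cultures. Of the 6 with a mean of at least 10 CPM, CXCL1 among them, 4 were highest in replicate 4 and 5 lowest in replicate 3, against 15.5% and 25.2% of the 9417 genes. CSF1, the macrophage growth factor, differed from this order, with 193, 808, 841 and 963 CPM and its lowest value in replicate 1. TNF was at or under 0.781 CPM.

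The NF-kB family and its targets followed the same order. Of 23 members with a mean of at least 10 CPM, 17 were highest in replicate 4 and 15 lowest in replicate 3, against 15.5% and 25.2% of the 9417 genes. The feedback inhibitor NFKBIA had 62.5, 64.7, 28.4 and 113 CPM and TNFAIP3 (A20) 47.9, 61.8, 14.1 and 120.2 CPM. NFKBIZ, an atypical IκB protein, had 9.21, 14.2, 13.0 and 28.8 CPM, lowest in replicate 1. The adhesion molecule ICAM1 had 209, 349, 147 and 698 CPM and the mitochondrial dismutase SOD2 409.8, 672, 197 and 971 CPM. RELA, the DNA-binding subunit itself, was even at 61.1, 48.9, 54.6 and 62.2 CPM. The checkpoint ligand CD274 (PD-L1) was low, with 7.66, 12.3, 4.71 and 15.4 CPM, and lowest in replicate 3. Among interferon-stimulated and antigen presentation genes, B2M had 2190.5, 1471, 1349 and 1314 CPM and HLA-C 737, 376, 696 and 575 CPM, and 30 of 34 reached 1 CPM in all cultures. HLA genes have near-identical copies, so their separate counts are uncertain. The complement protease C1S had 267, 309.9, 413 and 348 CPM, and PTX3, a pentraxin, 36.7, 29.9, 5.12 and 54.4 CPM.

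Genes of growth control, early response and lipid synthesis were also expressed at rest. Of 29 cytokines and growth factors 19 reached 1 CPM in all cultures, and 8 of the 18 with a mean of at least 10 CPM were highest in replicate 4, as 15.5% of the 9417 genes were. Among the 8, CSF3 reached that mean only through replicate 4, and averaged 2.27 CPM without it. GDF15, a stress-induced member of the TGFβ family, had 113, 96.4, 127 and 159.6 CPM, and the fibroblast growth factor FGF2 375, 347, 240.0 and 298 CPM. Of 19 immediate early genes of that level, 13 were highest in replicate 4, with the early growth gene IER3 at 83.9, 96.9, 116 and 189 CPM. Of 21 genes of cholesterol and fatty acid synthesis, 9 were highest in replicate 1 and 9 lowest in replicate 2, against 27.5% and 19% of the 9417 genes. The desaturase SCD had 1838, 536, 1023 and 823 CPM and the citrate lyase ACLY 587, 703, 678 and 767 CPM. Of 13 heat shock and metallothionein genes, 9 were highest in replicate 1, where 27.5% of all were, with the constitutive chaperone HSP90AB1 at 2545, 2379, 2114 and 1911 CPM.

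Over the 9417 genes, the SD of log2 CPM between the cultures had a median of 0.33 (quartiles 0.22 and 0.48), while counting alone would give a median of 0.05. The spread was above that of counting in all but 54 genes. The SD was over 1 in 397 genes (4.22%), of which 281 were lowest in replicate 1, as were 39% of the 9417 genes. Without replicate 1, 87 genes had such an SD. Lists of unequal spread were the fibroblast and pericyte markers (median SD 2.99, 5 members), chemokines (1.51, 6 members) and the cell cycle (1.38, 30 members), while renal lineage regulators (0.34, 8 members) were close to the median of all genes. Of the 5 fibroblast and pericyte markers, COL3A1 and DCN reached the mean of 10 CPM only through replicate 4. Without it they averaged 2.94 and 1.01 CPM, so the spread of this list follows in part from the filter.

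**Figure D3:**
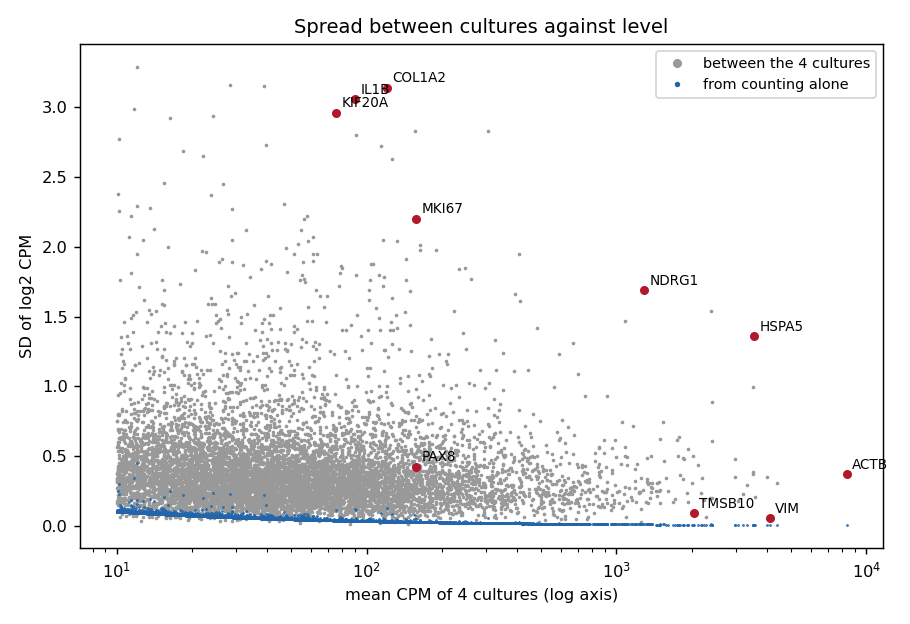
SD of log2 CPM between the 4 cultures (grey) and the SD that counting alone gives (blue) against mean CPM on a log axis, for the 9417 genes with a mean of at least 10 CPM, with 10 genes marked in red. COL1A2, IL1B and KIF20A lie near the top, and VIM and TMSB10 among the lowest.

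**Figure D4:**
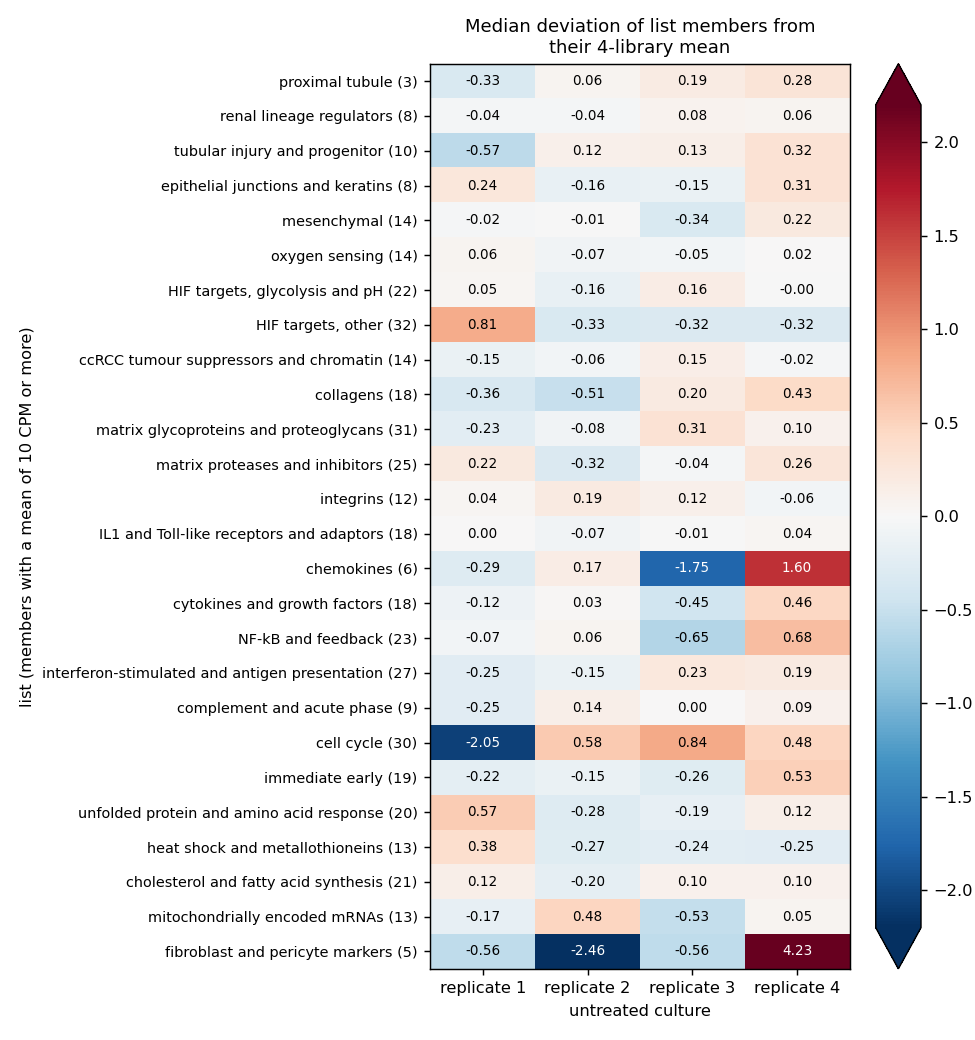
Median deviation of the members of each list from their mean over the 4 cultures, in log2 CPM, for lists with at least 3 members averaging 10 CPM (number in brackets). Colours end at 2.2 on either side, which the fibroblast and pericyte list passes at 4.23 in replicate 4 and -2.46 in replicate 2, and the cell cycle list stands at -2.05 in replicate 1. In the fibroblast and pericyte list, COL3A1 and DCN reached a mean of 10 CPM only through replicate 4.

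Replicate 1 was marked by low cell cycle genes. Of 30 cell cycle genes, 29 were lowest in replicate 1, as were 39% of the 9417 genes. In 25 of them replicate 1 lay more than 2-fold below every other culture, as in 540 of the 9417 genes (5.73%). The proliferation marker MKI67 (chr10:128096659-128126423, minus strand) had 9.95, 257, 223 and 143 CPM. Topoisomerase TOP2A had 35.9, 659, 566 and 363 CPM, and cyclin B1, CCNB1, 34.4, 338, 300.2 and 224 CPM. In these genes replicate 1 was far below the range of the other cultures. The mitotic kinesin KIF20A had 1.59, 97.6, 137 and 65.7 CPM, the spindle protein TROAP 1.11, 28.8, 44.1 and 32.2 CPM and the PCNA-associated factor PCLAF 0.592, 15.8, 17.3 and 14.2 CPM, and these 3 lay furthest below the other cultures of all 9417 genes. The replication clamp PCNA differed less, with 163, 267, 270.2 and 197 CPM. CDC6, a licensing factor, was the exception and highest in replicate 1 (152, 132, 119 and 115 CPM). The median deviation of the list was -2.05 in replicate 1 and 0.48 to 0.84 in the other cultures on the log2 scale.

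In the same culture, some genes of the unfolded protein response and heat shock were high. Of 20 members of the unfolded protein and amino acid response list, 15 were highest in replicate 1, against 27.5% of the 9417 genes. There 4 lay more than 2-fold above every other culture, against 2.11% of the 9417 genes. HSPA5, the chaperone BiP of the endoplasmic reticulum, had 9246, 1899, 988 and 2159 CPM. HERPUD1, a factor of protein degradation in that compartment, had 1145, 121, 86.0 and 223 CPM, and DNAJB9, a co-chaperone of BiP, 305, 37.4, 20.03 and 47.6 CPM. The transcription factor DDIT3 (CHOP) had 96.2, 15.9, 16.2 and 32.7 CPM. The serine synthesis enzyme PHGDH went the other way, with 110.4, 143, 196 and 283 CPM. HSPA6, an inducible heat shock gene, had 48.3, 3.79, 1.86 and 2.40 CPM, and the near-identical HSPA1A and HSPA1B 489, 82.9, 85.0 and 64.9 CPM and 369.7, 57.8, 59.4 and 43.0 CPM, whose separate counts are uncertain. TNFRSF10D, a decoy receptor for TRAIL, had 455, 43.5, 36.7 and 61.1 CPM. HSPA6 reached a mean of 10 CPM only through replicate 1 and averaged 2.68 CPM without it. HSPA6, NDRG1 and TNFRSF10D lay furthest above the other cultures of the 9417 genes, among 199 (2.11%) that did so by more than 2-fold. These values stood beside the low HIF1A and cell cycle values of the same library, and the label of the culture gives no difference in handling.

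Replicate 4 was marked by fibrillar collagens and other genes known from fibroblasts. COL1A2 (chr7:94394895-94431227, plus strand), a chain of type I collagen, had 15.4, 2.29, 15.8 and 451 CPM, 28.5-fold above the next culture. COL1A1, its partner chain, had 47.6, 47.0, 129.7 and 711 CPM, and COL3A1, the chain of type III collagen, 3.62, 0.722, 4.49 and 146 CPM. COL6A3 had 29.6, 6.74, 14.8 and 453 CPM, and the proteoglycan decorin, DCN, 2.11, 0.301, 0.634 and 43.6 CPM. All 5 were highest in replicate 4, by more than 2-fold. The smooth muscle gene TAGLN had 2.66, 1.02, 2.58 and 55.9 CPM, and 38.1% of its exon bases are shared with another gene on its strand. ACTA2, smooth muscle actin, had 50.8, 13.1, 12.5 and 55.6 CPM, so that replicate 1 came close to replicate 4. Of the 9417 genes, 70 (0.743%) lay more than 2-fold above every other culture in replicate 4 and 0 (0%) below. Some of the 70, such as COL3A1 and DCN, reached the mean of 10 CPM only through replicate 4. Of 18 collagens with a mean of at least 10 CPM, 11 were highest and 6 were more than 2-fold above the others in this culture, against 15.5% and 0.743% of the 9417 genes.

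Fibroblast and pericyte markers summed to 1507 CPM in replicate 4 and to 78.0 to 177 CPM in the other cultures, and 10 of 11 were highest in replicate 4. Among the 9417 genes with a mean of at least 10 CPM, 15.5% were, though not all of these markers had that mean. The defining receptors PDGFRA (2.66, 0.361, 0.181 and 27.6 CPM) and PDGFRB (1.11, 1.02, 3.04 and 22.0 CPM) and the surface marker THY1 (1.07, 0.120, 0.589 and 29.6 CPM) were among them, while RGS5 was not (9.02, 11.3, 7.84 and 7.45 CPM). The part of such markers in the high matrix and inflammatory values of replicate 4 was not tested. Leukocyte markers summed to 5.05 CPM in replicate 4 and to 1.95 to 22.1 CPM in the others, with CD3D, CD3E, CD8A and MS4A1 at 0 counts and PTPRC at 0 to 0.518 CPM. The 22.1 CPM of replicate 1 came mostly from lysozyme, LYZ (19.6, 0.301, 0.408 and 2.92 CPM). Endothelial markers summed to 32.1 to 67.0 CPM, of which EGFL7 made up 28.2 to 63.8 CPM, and CDH5 was at 0 to 0.120 CPM and PECAM1 at 0.136 to 1.04 CPM. The keratin KRT8 and PAX8 were highest in this same replicate 4, while ANPEP and SYNPO were lowest there. Of 8 renal lineage regulators with a mean of at least 10 CPM, 3 were highest in replicate 4. Of 8 epithelial genes of that level, 4 were highest in replicate 4 and 4 in replicate 1.

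Some genes were found in 1 culture and hardly elsewhere. In replicate 1, 2 genes had at least 10 CPM and under 1 CPM in every other culture, AC016831.7 and GOLT1A. In replicate 4, 8 genes had at least 10 CPM and under 1 CPM in every other culture, namely ACTG2, CLDN11, FBN2, GALNT5, KRT13, MXRA8, S100A8 and TIMP3. Conversely, 5 genes had under 1 CPM in replicate 1 and at least 10 CPM in every other culture. These were the cell division genes CDC25C, DBF4B, ESCO2 and PCLAF and the protocadherin PCDH7.

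The 20 most variable genes turned mainly on that culture. Of them 18 were highest in replicate 4, and 16 of these 18 were next highest in replicate 1, COL1A2 and COL3A1 being the exceptions. Most of the 18 reached the mean of 10 CPM only through replicate 4. Without that culture SPON2 averaged 1.40 CPM, DCN 1.01 CPM and IGFBP4 2.75 CPM. TAGLN, CSF3, COL3A1, ESR1, MMP2, TNFSF15 and GREM1 also fell under that mean, at 2.09 to 6.67 CPM. The number highest in replicate 4 thus follows in part from the filter. The list held matrix and protease genes (SPON2, COL3A1, COL1A2, DCN, MMP1, MMP3, MMP2, PLAU, COL6A3 and TAGLN). It also held the BMP antagonist GREM1 (18.01, 0.963, 1.04 and 93.2 CPM) and the growth factor binders IGFBP4 (5.55, 0.662, 2.04 and 89.1 CPM) and IGFBP5 (27.1, 3.37, 9.61 and 322 CPM). The cytokines IL1B, TNFSF15 (15.8, 1.32, 0.544 and 47.9 CPM) and CSF3 (5.03, 1.51, 0.272 and 34.1 CPM) and the protease inhibitor SERPINB2 (31.4, 5.78, 1.495 and 119.9 CPM) followed the same order. The estrogen receptor ESR1, at 7.40, 0.903, 1.54 and 63.6 CPM, was a further member, and KIF20A and TROAP, lowest in replicate 1, completed the 20. Without replicate 4, only 2 of these 20 genes stayed among the 20 most variable.

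**Figure D5:**
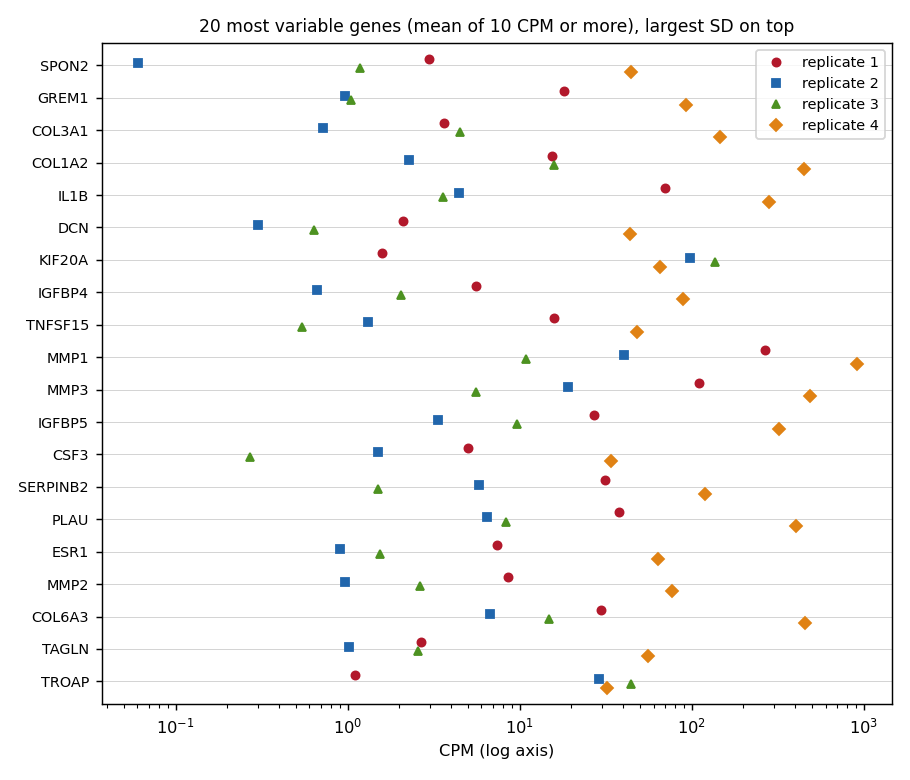
CPM on a log axis of the 20 genes with the largest SD of log2 CPM among those with a mean of at least 10 CPM, 1 point per culture, ordered by SD. Replicate 4 lies furthest to the right in 18 genes, and in KIF20A and TROAP replicate 1 lies furthest to the left.

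Replicate 2 stood apart in the fewest genes, and replicate 3 in about as many as replicate 4, mostly below the others. In replicate 2, 2 genes (0.0212%) were more than 2-fold above all others, the mitochondrially encoded MT-ATP8 (136, 289, 57.6 and 105 CPM) and ARAP2, a GTPase-activating protein (6.47, 20.5, 10.1 and 10.0 CPM). ARAP2 reached a mean of 10 CPM only through replicate 2, and averaged 8.84 CPM without it. Below the others were 23 genes (0.244%), with SPON2, COL1A2 and COL3A1 furthest. In replicate 3, 12 genes (0.127%) lay above, led by RASL11A (3.14, 11.5, 33.7 and 10.1 CPM), HRCT1 (4.47, 10.7, 29.6 and 11.6 CPM) and TONSL (7.14, 36.6, 97.7 and 38.8 CPM), a DNA repair factor. RASL11A and HRCT1 reached a mean of 10 CPM only through replicate 3, and averaged 8.23 and 8.94 CPM without it. Of the 64 genes below (0.68%), PTX3, CXCL8 and IL6 lay furthest. In replicate 4 the genes furthest below the others, B3GALT5 (15.3, 13.5, 14.5 and 7.61 CPM), PPP1R3C (39.1, 14.4, 20.4 and 7.61 CPM) and THNSL1 (17.9, 17.0, 15.2 and 7.55 CPM), did not pass 2-fold once the prior count was added, although the plain CPM of THNSL1 differed by 2.02-fold.

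The steadiest genes with a mean of at least 100 CPM were MRPS23, LAPTM4B, TSPAN3, CSNK1A1 and ADAR. MRPS23, a mitochondrial ribosomal protein, had 145, 146, 147 and 146 CPM, with an SD of 0.01 in log2 CPM. LAPTM4B, a lysosomal membrane protein, had 416, 417, 422 and 412 CPM. The RNA-editing enzyme ADAR had 482, 504, 495 and 489 CPM. CSNK1A1, a casein kinase, had 185, 177, 178 and 181 CPM, with 49.3% of its exon bases shared with another gene on its strand. The usual control genes spread more, with SDs of 0.37 for ACTB and 0.31 for GAPDH. For ACTB this corresponded to 5780.4, 8871, 8061 and 10665 CPM.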

How the data were processed

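RNA from 4 untreated A498 cultures was sequenced from stranded libraries. The authors deposited a table of raw counts per gene symbol, made by alignment with STAR 2.5.3a to hg38 and counting with featureCounts. For featureCounts the version, the gene annotation and whether strand was used are not given here. Of 59050 rows, 27 held a date in place of a symbol (0.215% to 0.236% of counts) and were left out. CPM were computed from column totals. Exon lengths and positions came from GENCODE 44, with 36442 genes matched by symbol and 730 by an older symbol (99.1% to 99.2% of counts).

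A total of 161 genes were named by a rule: the highest by CPM and CPM per kb, the most and least variable, the genes furthest apart in each replicate, and key or leading list members. Some of these are not reported here. Any other gene named was chosen after its values were seen. The members and the 29 lists (652 of 655 genes in the table) were chosen with earlier results of these data known. SDs of log2 CPM used a prior count of 2, and no test between groups was run. The libraries differed from each other by a chi-square per gene of 48.1 to 192, more than counting error, which does not show whether they are separate cultures. TMM (edgeR 4.0.16), DESeq2 1.42.0 size factors, thinning, other thresholds and left-out replicates were tried, with R 4.3.3, Python 3.11.15, pandas 2.3.3, numpy 2.4.6 and matplotlib 3.10.9.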

Additional observations from a re-analysis of the deposited data

Results flagged for a closer look

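Of 189 values examined over the 4 cultures (library measures, list deviations and genes), 15 had 1 culture set apart by a gap that took more of the whole range than Dixon's 95% limit for 4 samples. Chance alone would set apart about 5% of such groups. The share of counts in the 1000 highest genes was set apart in replicate 1 (gap 0.989 of the range). Among the lists, replicate 1 was apart for HIF targets outside glycolysis (0.991), the cell cycle (0.874) and heat shock genes (0.947). Replicate 4 was apart for immediate early genes (0.865) and replicate 2 for cholesterol and fatty acid synthesis (0.919).

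Of 154 genes examined, 9 (5.84%) were past the limit, close to the share that chance gives, and in these replicate 1 was the culture apart. It was above the others for S100A11 (0.9) and VEGFA (0.909). It was below them for CSF1 (0.891), HAVCR1 (0.868), HIF1A (0.895), KIF20A (0.834), PCLAF (0.939), SLC4A4 (0.913) and TROAP (0.883). KIF20A, PCLAF and TROAP were named for lying furthest below in replicate 1, so their gaps restate that choice. The rows with a date in place of a symbol, which no result uses, held up to 0.236% of the counts of a library, above the level that 3 counts allow.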

How the results depend on the processing

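The number of genes at 1 CPM in all cultures (12419 as reported) was 12419 to 13778 under the alternatives run, with 12948 without replicates 1 and 4 together. The 397 genes with an SD over 1 became 978 at a mean of 1 CPM, 73 by edgeR's tagwise variation, 87 to 542 with 1 replicate left out (87 without replicate 1), and 92 without replicates 1 and 4 together. Of the 20 most variable genes, 8 were shared at a mean of 1 CPM, 2 to 16 with 1 replicate left out (2 without replicate 4), and 1 without replicates 1 and 4 together. Leaving out both was chosen after seeing the data. With 1.5-fold in place of 2-fold, 558 genes lay above and 1102 below in replicate 1, 88 and 213 in replicate 2, 191 and 238 in replicate 3, and 165 and 41 in replicate 4. The 2 genes above in replicate 2 became 0 under TMM and 1 after thinning to 16610473 counts. Of 154 named genes with a mean of at least 1 CPM, the mean fell by over 1.5 times in 11 without replicate 1, 0 without replicate 2, 3 without replicate 3 and 26 without replicate 4, and it rose by as much in 0. NDRG1 averaged 401 CPM without replicate 1 (1290 CPM as reported), and without replicate 4 COL1A2 averaged 11.2 CPM (121 CPM) and COL3A1 2.94 CPM (38.8 CPM). TMM shifted the median gene by -0.000554 in log2. Its list deviations changed sign in values near 0, for renal regulators, mesenchymal genes and NF-kB in replicate 1, cytokines in replicate 2 and complement in replicate 3. No paired analysis was possible because no groups were compared and no result comes from a test. With 4 cultures of 1 line, the spread is that of these libraries.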
